A study of Mus musculus with 9 samples.

Results

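The expression of 10 genes that make and modify long-chain fatty acids was followed in mouse embryoid bodies (EBs). These members are the carbon entry and chain synthesis genes Acly, Acaca and Fasn, the elongases Elovl1, Elovl5 and Elovl6, the delta-9 desaturases Scd1 and Scd2, and the front-end desaturases Fads1 and Fads2. They were listed by gene symbol, and all 10 were found among the 55471 gene identifiers of the count table. All 10 passed the filter on low counts in every comparison.

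The study asked how the loss of Tnfaip2 changes the differentiation of embryonic stem cells, and whether adding a fatty acid alters it. Poly(A)-selected RNA was sequenced from EBs, which are aggregates of embryonic stem cells, on day 3 of differentiation on gelatin. The 3 groups of 3 libraries each were WT EBs of the parental E14 line, untreated Tnfaip2-/- EBs (given vehicle, by the study's legends), and Tnfaip2-/- EBs given palmitic acid, or PA, together with its carnitine ester palmitoyl-L-carnitine, or PC, at 8 μM each, below called PA/PC-treated EBs. The Tnfaip2-/- cells are 1 CRISPR clone with a premature stop codon, and no PA/PC-treated WT libraries were analysed here, so the genotype cannot be told apart from the clone, nor the action of PA/PC in WT from that in Tnfaip2-/- cells. By the study's methods, the treated EBs were formed as well as differentiated in MEF medium with PA/PC, while untreated EBs were formed in ES cell medium, so that the supplement and the medium of EB formation cannot be told apart.

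Fatty acid synthesis turns cytosolic citrate into acetyl-CoA, then malonyl-CoA, then palmitate, the saturated fatty acid that was also supplied to the treated EBs. Palmitate is lengthened in the endoplasmic reticulum by elongases and given a first double bond by delta-9 desaturases, while front-end desaturases and elongases together build polyunsaturated fatty acids from dietary precursors. Many of these genes share control by the sterol regulatory element binding proteins, and polyunsaturated fatty acids are known to lower the expression of several of them.

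The libraries held 27362913 to 28914312 counts. Levels are given as CPM, read counts brought to a common library size with TMM factors, which equalise the bulk of genes between libraries. The treated libraries differed from the others in composition, with TMM factors of 0.921 to 0.926 against 1.04 in the other 2 groups, and 1.26% to 1.34% of counts in mitochondrial genes against 1.85% to 1.98%. Scaling by library totals alone therefore moved the median gene by -0.17 on the log2 scale in both comparisons with treated EBs, and directions that this turns are named beside the values. Tnfaip2 itself had 6 to 16 counts in WT, 5 to 8 in Tnfaip2-/- and 14 to 25 in PA/PC-treated libraries, so its transcript was too scarce to check the genotype labels. The summed level of 8 endoderm markers was 202 to 210 CPM in WT, 149 to 153 CPM in Tnfaip2-/- and 25.1 to 25.6 CPM in PA/PC-treated libraries. Between genotypes 5 of the 8 were called lower and 3, Afp, Apoa1 and Ttr, higher, and with PA/PC all 8 were called lower. The summed level of 6 epiblast and ectoderm markers was 382 to 392, 259 to 266 and 667 to 683 CPM in the same order, and that of 8 pluripotency markers was 2388 to 2444, 3988 to 4018 and 2397 to 2455 CPM. The near sums of WT and treated EBs hide opposite changes, since in treated against WT EBs 5 of the 8 were called lower, such as Tfcp2l1 at 37.1 against 99.4 CPM, and 3 higher, such as Pou5f1 at 913 against 658 CPM (1 higher and 6 lower under library totals). Trophoblast markers summed to 52.7 to 54.4, 284 to 291 and 30.7 to 33.5 CPM, nearly all of it Tfap2c. Of the 3 tested, Cdx2 alone was called higher with PA/PC, from 0.483 to 1.81 CPM. Mesoderm markers summed to 36.9 to 40.0, 33.3 to 34.5 and 51.9 to 54.6 CPM, most of it Eomes. Between genotypes 2 of the 5 tested were called higher, Kdr and Hand1, and 2 lower, T and Eomes. With PA/PC 3 were called higher, such as T from 0.281 to 16.7 CPM. The other 2, Kdr from 6.18 to 0.563 CPM and Hand1 from 4.365 to 0.235 CPM, were called lower. The 4 marker genes of adipocytes and hepatocytes, cells known for high lipid synthesis, summed to at most 0.333 CPM in any library, with Adipoq at 0 in WT and Fabp4 and Alb at 0 in PA/PC-treated EBs.

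These marker levels differed between groups along with every result below, and their part in the results was not tested. In bulk RNA, fewer cells of a type and less RNA per cell cannot be told apart.

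Compared per length, the members differed widely in level. In WT EBs, Acly was the most abundant per kilobase of merged exons, at 93.4 ± 0.961 (SD, n = 3) CPM per kilobase, followed by Scd2 at 67.6 ± 0.588 and Fads2 at 48.4 ± 0.685. Acaca was the least abundant at 1.254 ± 0.0376 CPM per kilobase. Among genes over 1 CPM, Acly lay at percentile 97.0 and Acaca at percentile 18.6 of the level per kilobase.

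In Tnfaip2-/- EBs Acly stayed first and Acaca last, while Fasn moved ahead of Fads2 and Elovl5 and Elovl6 ahead of Fads1. In PA/PC-treated EBs Scd2 came first, at 135 ± 0.468 CPM per kilobase, ahead of Acly at 110 ± 0.313. The libraries of neighbouring genes in this order did not overlap in any group. The order depends on the length used: per kilobase of coding sequence Scd2 rather than Acly was first in WT, and 6 pairs of neighbours overlapped, namely Scd1 and Fasn in WT, Elovl6 and Scd2, Fads1 and Scd1, and Scd1 and Fasn in Tnfaip2-/-, and Elovl5 and Fads2 and Scd1 and Fads1 in PA/PC-treated EBs.

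**Figure D1:**
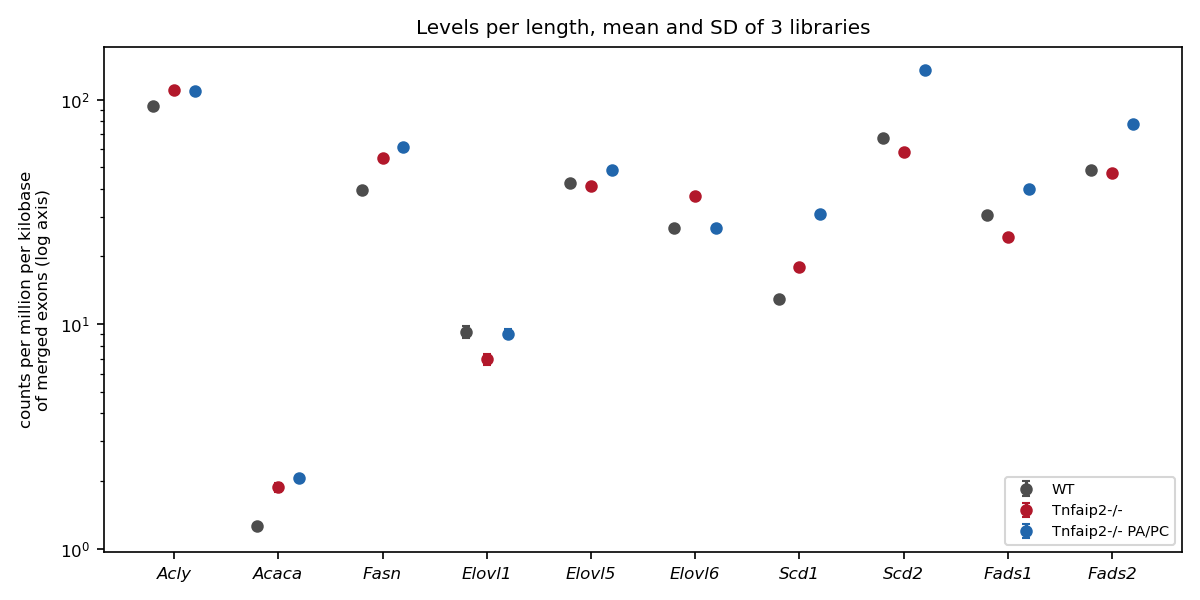
Level of each member in CPM per kilobase of merged exons on a log axis, as the mean of 3 libraries with SD bars (often smaller than the points), in WT (grey), Tnfaip2-/- (red) and PA/PC-treated Tnfaip2-/- EBs (blue). Acly and Scd2 are the highest and Acaca the lowest in each group, and Scd2 passes Acly in treated EBs.

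The first comparison asked which steps differed with the Tnfaip2 genotype. In Tnfaip2-/- against WT EBs, 5 members were higher and 3 lower at an adjusted p under 0.05 (edgeR quasi-likelihood test, Benjamini-Hochberg over 17355 genes), against 36.8% of all genes tested called higher and 37.1% called lower. The 8 called members compare with 73.8% of all genes called in either direction, and 8 members had libraries of the groups that did not overlap, against 75.3% of all genes, so these counts were near the background. None of the 10 passed a test for a change of more than 1.5-fold, which 21.0% of all genes passed. Their median log2 fold change was 0.10, against -0.01 over all genes.

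The second comparison asked what differed with PA/PC within the Tnfaip2-/- clone. In PA/PC-treated against untreated EBs, 8 members were called higher and 1 lower, against 39.6% and 42.2% of the 17167 genes tested. That makes 9 called members beside 81.8% of all genes, and 9 with libraries that did not overlap beside 82.2%. With TMM scaling the 4 desaturases were past 1.5-fold, which 37.8% of all genes were. The median log2 fold change was 0.30, against -0.02 over all genes. With library totals as the scale, 6 members were called higher and 2 lower, and over all genes 5317 were called higher and 8684 lower in place of 6801 and 7246.

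The third comparison set PA/PC-treated Tnfaip2-/- EBs against WT EBs. Here 8 members were called higher and none lower at an adjusted p under 0.05 (edgeR), against 34.2% and 36.4% of the 16655 genes tested. All genes called came to 70.6%, and genes with libraries that did not overlap to 72.6%, beside 8 members of each kind. With TMM scaling Acaca, Scd1, Scd2 and Fads2 were past 1.5-fold, against 17.7% of all genes. The 10 members had a median of 0.51, against -0.02 over all genes. With library totals as the scale, 2 members, Elovl1 and Elovl6, were called lower, and over all genes 3616 were called higher and 8341 lower in place of 5693 and 6067. The 3 comparisons share libraries pairwise and are not independent of each other.

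**Figure D2:**
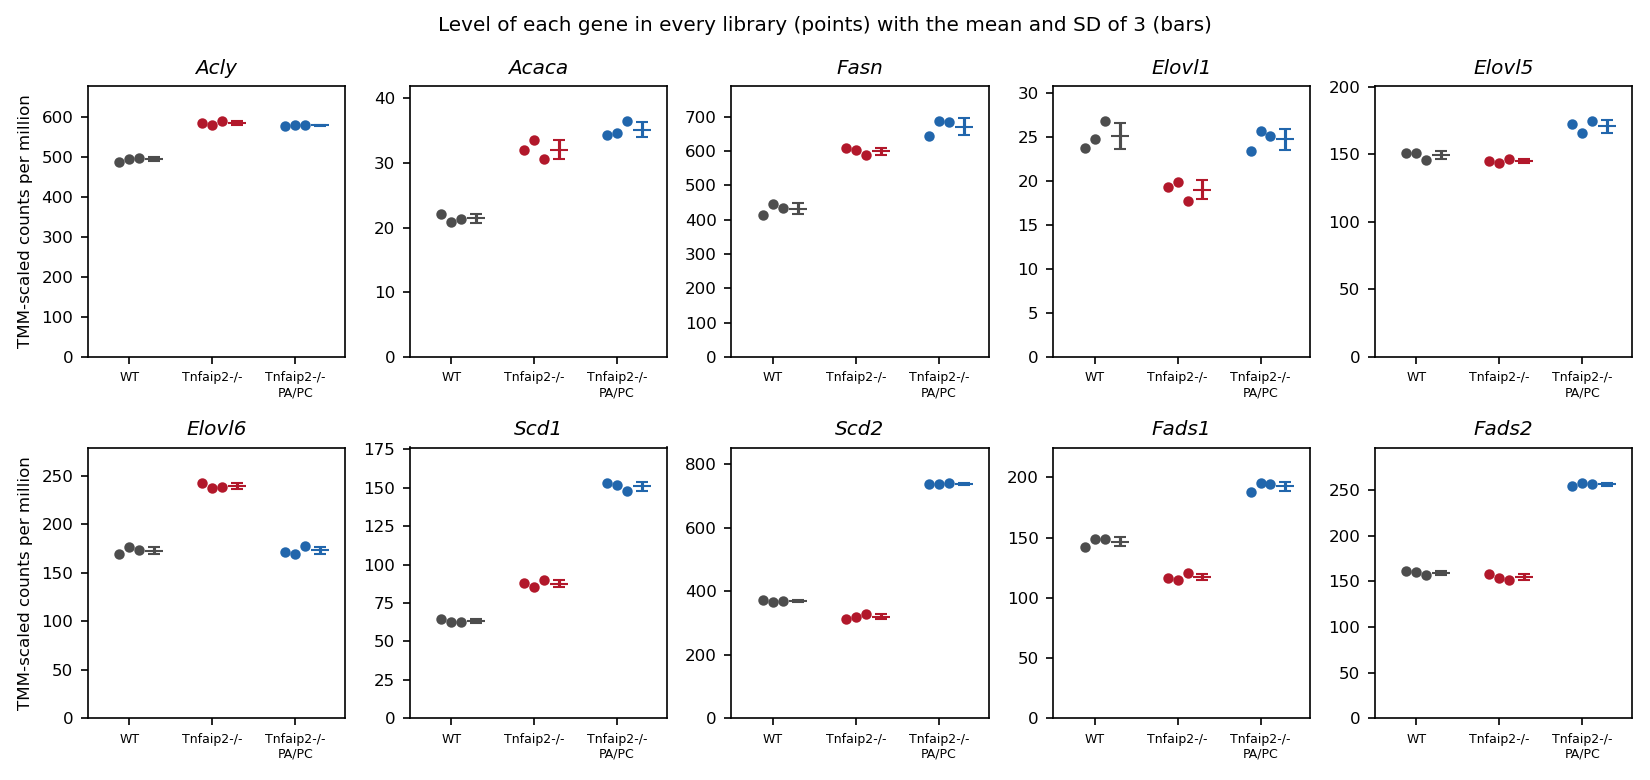
Level of each member in TMM-scaled CPM (each axis from 0) in every library, with the mean and SD of 3 libraries beside the points, in WT (grey), Tnfaip2-/- (red) and PA/PC-treated EBs (blue). Acly, Acaca and Fasn are higher in both Tnfaip2-/- groups than in WT, Elovl6 is high in untreated Tnfaip2-/- EBs alone, and the 4 desaturases are highest in treated EBs.

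Acly, Acaca and Fasn, the cytosolic route from citrate to palmitate, were all higher in Tnfaip2-/- than in WT EBs. Acly (chr11:100476353-100528000, GRCm38, minus strand) encodes ATP citrate lyase, which splits citrate into acetyl-CoA and oxaloacetate. Its level was 487, 495 and 497 CPM in the WT libraries, 584, 578 and 588 CPM in Tnfaip2-/- and 576, 579 and 579 CPM in PA/PC-treated EBs. Every Tnfaip2-/- library, treated or not, was above every WT library, and the treated and untreated libraries overlapped. The log2 fold change was 0.24 ± 0.0206 (SE) between genotypes (edgeR, adjusted p = 1.77e-12) and 0.22 ± 0.0249 for treated against WT EBs (edgeR, adjusted p = 1.87e-08), the latter 0.06 under scaling by library totals (adjusted p = 0.0417). Between treated and untreated EBs it was -0.02, with a 95% confidence interval of -0.06 to 0.03 (edgeR, adjusted p = 0.513), but -0.18 and called lower under scaling by library totals.

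Acaca (chr11:84129672-84401651, plus strand) encodes acetyl-CoA carboxylase 1, which makes malonyl-CoA in the committed step. Its counts gave 22.1, 20.9 and 21.3 CPM in WT, 32.0, 33.5 and 30.6 CPM in Tnfaip2-/- and 34.4, 34.7 and 36.4 CPM in PA/PC-treated libraries. All Tnfaip2-/- libraries lay above all WT libraries. The log2 fold change was 0.58 ± 0.0494 between genotypes (edgeR, adjusted p = 1.67e-12), the largest rise of a member there, and 0.71 ± 0.0502 between treated and WT EBs (edgeR, adjusted p = 4.33e-12). The change with PA/PC was 0.13 ± 0.0472 (edgeR, adjusted p = 0.0113), and it turned to -0.04 under scaling by library totals, fell short of the threshold in DESeq2 (adjusted p = 0.0651) and without Tnfaip2-/- replicate 3 (edgeR, adjusted p = 0.0961). Of the 51-base words in its coding transcripts, 48.9% also occur in the processed pseudogene Gm5182 on chromosome 12. Reads within such words cannot be placed uniquely, so its level is uncertain and may be understated. Gm5182 itself held 38 to 41 counts in WT, 55 to 71 in Tnfaip2-/- and 40 to 54 in treated libraries.

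Fasn (chr11:120805846-120824547, minus strand) encodes fatty acid synthase, the enzyme that builds palmitate from acetyl-CoA and malonyl-CoA. It measured 415, 447 and 435 CPM in WT, 609, 602 and 589 CPM in Tnfaip2-/- and 644, 687 and 684 CPM in PA/PC-treated libraries. The 3 groups did not overlap. The log2 fold change was 0.47 ± 0.0235 between genotypes (edgeR, adjusted p = 9.83e-19) and 0.63 ± 0.0297 between treated and WT EBs (edgeR, adjusted p = 1.51e-15), which is 1.55-fold but did not pass the test for more than 1.5-fold (adjusted p = 0.117). With PA/PC it was 0.16 ± 0.0253 (edgeR, adjusted p = 6.39e-07), and -0.01 under scaling by library totals, so no direction can be given for that comparison. Neither Acly nor Fasn shared a 51-base word with any other gene.

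Ratios of counts within a library do not depend on how libraries are scaled. There were 6 such pairs and 3 comparisons, making 18 tests. An exact two-sided permutation test of 3 against 3 libraries cannot go below p = 0.1. The smallest value found after Benjamini-Hochberg adjustment was 0.138. The ratio of Acly to Fasn was 1.17, 1.11 and 1.14 in WT, 0.959, 0.959 and 0.998 in Tnfaip2-/- and 0.895, 0.843 and 0.846 in PA/PC-treated libraries. The 3 groups did not overlap, and the ratio was highest in WT and lowest in PA/PC-treated EBs. A ratio of counts does not rank the levels of genes of unlike length. Per kilobase of merged exons Acly was above Fasn in every group. The values were 93.4 against 39.5 CPM per kilobase in WT, 110.5 against 54.8 in Tnfaip2-/- and 109.5 against 61.35 in treated EBs. The ratio of Acaca to Fasn ran from 0.0467 to 0.0533 in WT, 0.0519 to 0.0556 in Tnfaip2-/- and 0.0504 to 0.0534 in treated libraries, and all 3 groups overlapped.

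The promoters of Fasn and Acly, which were higher in both Tnfaip2-/- groups than in WT, are shown for the letters they hold in common with other promoters, from 250 bases before to 50 after the start in RefSeq (GRCm38.p6). Capitals mark matches on either strand to CCAAT, known as the NF-Y box, or GGGCGG, known as the GC box. The first window is chr11:120824498-120824797 and the second chr11:100527951-100528250, both printed along the minus strand.

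Fasn promoter: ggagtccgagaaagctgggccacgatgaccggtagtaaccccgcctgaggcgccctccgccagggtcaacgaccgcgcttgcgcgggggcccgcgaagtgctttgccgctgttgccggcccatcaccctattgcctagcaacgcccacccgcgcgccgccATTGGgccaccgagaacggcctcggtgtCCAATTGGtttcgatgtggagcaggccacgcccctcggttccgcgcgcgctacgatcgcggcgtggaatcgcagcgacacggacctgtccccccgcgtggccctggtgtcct

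Acly promoter: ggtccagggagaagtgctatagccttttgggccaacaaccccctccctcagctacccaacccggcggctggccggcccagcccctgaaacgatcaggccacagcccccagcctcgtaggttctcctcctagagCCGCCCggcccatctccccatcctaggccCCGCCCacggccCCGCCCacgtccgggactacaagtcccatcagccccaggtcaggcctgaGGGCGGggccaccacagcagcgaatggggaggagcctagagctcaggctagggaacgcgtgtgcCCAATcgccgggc

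The Fasn window held 3 CCAAT matches, starting at positions -90, -62 and -59 from the start, of which the last pair overlap in CCAATTGG. The Acly window held 4 GC boxes, starting at -117, -88, -76 and -27, and 1 CCAAT at 38 after the start. Over the 32851 promoters of the same length, 37.41% held CCAAT and 35.66% held GGGCGG. TCACNCCAC, a sterol regulatory element, was in 1.24% of them and in none of the 8 windows of 7 members, Elovl1 having 2. CCAAT and GGGCGG were each in 4 of these 8 windows. The windows of Acaca and Elovl6 held no match to any motif searched. The E-box CACGTG was in 7.15% of all promoters and in that of Elovl5 alone among the members. The Acaca window and the second Elovl1 window lie inside the gene as GENCODE annotates it, and the Fads2 window almost wholly so, so none of these is the first annotated start. Fads1, Scd1 and Scd2 had no entry.

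The 3 elongases each followed a different course. Elovl1 was lower and Elovl6 higher in Tnfaip2-/- than in WT EBs, neither passed the threshold between PA/PC-treated and WT EBs with TMM scaling, and Elovl5 was called only in the comparisons with treated EBs. Elovl1 (chr4:118428093-118432953, plus strand) encodes the elongase of saturated and monounsaturated very-long-chain fatty acids. It was the scarcest of them, at 23.8, 24.7 and 26.8 CPM in WT, 19.3, 19.9 and 17.8 CPM in Tnfaip2-/- and 23.4, 25.7 and 25.1 CPM in PA/PC-treated libraries. The untreated Tnfaip2-/- libraries were below all others, while treated and WT libraries overlapped. Its log2 fold change was -0.40 ± 0.0557 between genotypes (edgeR, adjusted p = 7.49e-08) and 0.38 ± 0.0572 with PA/PC (edgeR, adjusted p = 2.40e-07), the latter 0.21 under library totals (adjusted p = 0.0011). Treated and WT EBs differed by -0.03, with a 95% confidence interval of -0.15 to 0.09 (edgeR, adjusted p = 0.649), a value that was called lower at -0.20 under scaling by library totals and that turned positive when WT replicate 3 or treated replicate 1 was left out. Of its exon bases, 1.94% overlap those of Cdc20.

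Elovl5 (chr9:77917364-77984519, plus strand) encodes the elongase that lengthens polyunsaturated fatty acids. It measured 151, 151 and 146 CPM in WT, 145, 144 and 147 CPM in Tnfaip2-/- and 172, 165 and 174 CPM in PA/PC-treated libraries. WT and untreated Tnfaip2-/- libraries overlapped, and all treated libraries were above both. The genotype difference was -0.04 on the log2 scale, with an interval of -0.10 to 0.01 (edgeR, adjusted p = 0.156). With PA/PC it was 0.23 ± 0.0291 (edgeR, adjusted p = 5.47e-09), and 0.06 under scaling by library totals (adjusted p = 0.0439). Against WT the treated EBs were higher by 0.19 ± 0.0315 (edgeR, adjusted p = 1.12e-05), which was not called under library totals at 0.02. Its promoter, chr9:77917115-77917414 on the plus strand in RefSeq, is the member window with an E-box, CACGTG, here in capitals together with 2 CCAAT matches read on the other strand as ATTGG.

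Elovl5 promoter: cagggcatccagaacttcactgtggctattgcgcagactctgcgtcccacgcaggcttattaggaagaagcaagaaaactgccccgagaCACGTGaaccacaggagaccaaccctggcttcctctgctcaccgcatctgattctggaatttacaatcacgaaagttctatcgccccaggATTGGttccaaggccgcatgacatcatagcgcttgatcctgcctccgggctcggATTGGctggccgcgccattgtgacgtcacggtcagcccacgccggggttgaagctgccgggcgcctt

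Elovl6 (chr3:129532355-129638495, plus strand) encodes the elongase that takes palmitate to stearate. Its level was 169, 176 and 173 CPM in WT, 243, 237 and 239 CPM in Tnfaip2-/- and 172, 170 and 177 CPM in PA/PC-treated libraries. With TMM scaling it was the 1 member called higher between genotypes and lower with PA/PC, to which library totals add Acly, and treated and WT libraries overlapped. The log2 fold change was 0.47 ± 0.025 in Tnfaip2-/- against WT EBs (edgeR, adjusted p = 6.71e-18). With PA/PC it fell by 0.47 ± 0.0275 (edgeR, adjusted p = 6.26e-18), and by 0.64 under library totals. Between treated and WT EBs the value was -0.01, with an interval of -0.07 to 0.06 (edgeR, adjusted p = 0.856), whereas library totals called it lower at -0.17.

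The ratio of Elovl6 to Elovl5 counts was 1.12, 1.17 and 1.19 in WT, 1.67, 1.65 and 1.63 in Tnfaip2-/- and 0.998, 1.03 and 1.02 in PA/PC-treated libraries. No library of 1 group fell among those of another, and each of the 3 tests gave the smallest possible p = 0.1 (exact permutation test, adjusted p = 0.138). Thus untreated Tnfaip2-/- EBs had the most Elovl6 for their Elovl5 and treated EBs the least. The ratio of Elovl5 to Elovl1 had geometric means of 5.95 in WT, 7.65 in Tnfaip2-/- and 6.90 in treated EBs, and the latter 2 groups overlapped.

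**Figure D3:**
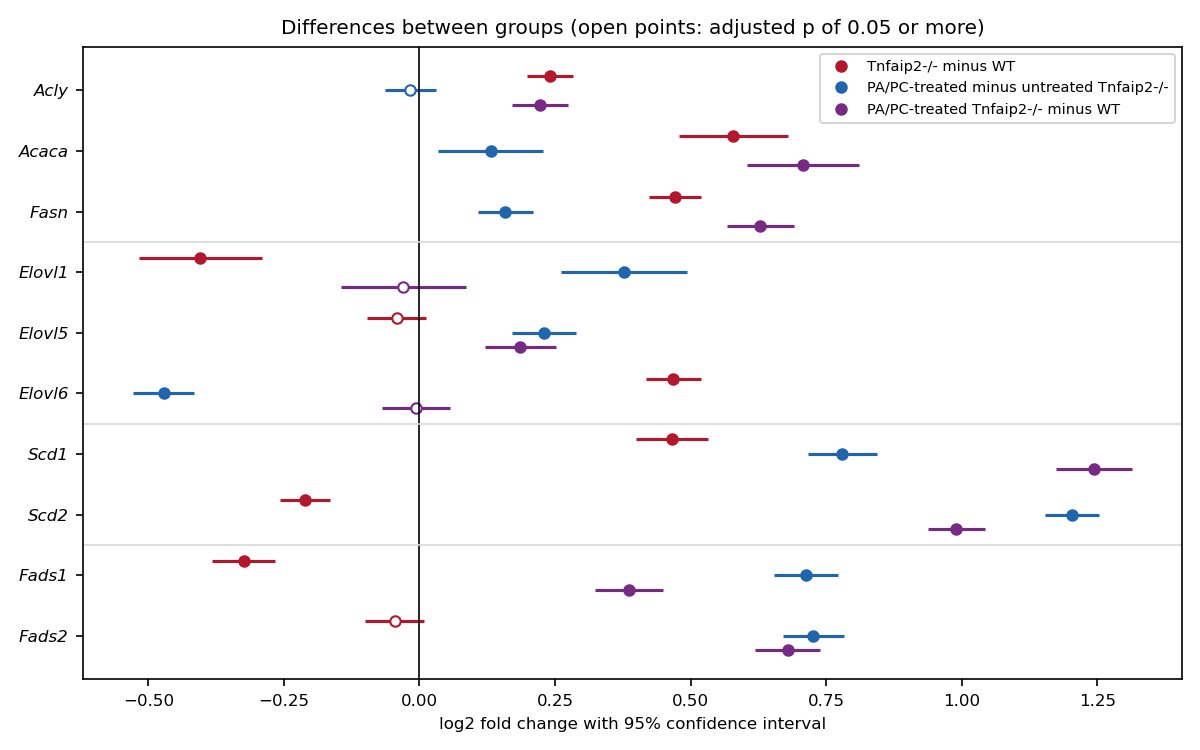
Log2 fold change of each member with its 95% confidence interval (edgeR, TMM scaling) for Tnfaip2-/- against WT (red), PA/PC-treated against untreated Tnfaip2-/- (blue) and PA/PC-treated Tnfaip2-/- against WT EBs (purple). Open points had an adjusted p of 0.05 or more, and the 4 desaturases at the bottom have the largest rises with treatment.

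The delta-9 desaturases Scd1 and Scd2, which introduce the first double bond into palmitate and stearate, moved in opposite directions between genotypes and both rose with PA/PC. Scd1 (chr19:44394455-44407879, minus strand), the chief isoform of adult liver, measured 64.7, 62.7 and 62.7 CPM in WT, 87.8, 85.3 and 89.8 CPM in Tnfaip2-/- and 153, 152 and 148 CPM in PA/PC-treated libraries. The 3 groups did not overlap, and each step in this order was upward. The log2 fold change was 0.47 ± 0.0328 between genotypes (edgeR, adjusted p = 1.18e-14) and 0.78 ± 0.0314 with PA/PC (edgeR, adjusted p = 7.48e-23). Between treated and WT EBs it was 1.24 ± 0.0341, or 2.37-fold (edgeR, adjusted p = 2.93e-20), at percentile 98.9 of all genes tested. With PA/PC the change of Scd1 lay at percentile 85.9, beside 93.5 for Scd2, 84.0 for Fads1 and 84.4 for Fads2.

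Scd2 (chr19:44293674-44306864, plus strand), an isoform known from brain and from the embryo, was several times more abundant. It was at 373, 366 and 369 CPM in WT, 313, 318 and 328 CPM in Tnfaip2-/- and 737, 736 and 741 CPM in PA/PC-treated libraries. Untreated Tnfaip2-/- libraries were the lowest and treated libraries the highest, with no overlap. Its log2 fold change was -0.21 ± 0.0229 between genotypes (edgeR, adjusted p = 4.98e-10). With PA/PC it was 1.20 ± 0.0245, or 2.30-fold (edgeR, adjusted p = 4.36e-32), the largest of the members in that comparison, and 0.99 ± 0.0254 between treated and WT EBs (edgeR, adjusted p = 7.17e-21). All directions of Scd1 and Scd2 were the same under library totals, where the change with PA/PC was 0.61 for Scd1 and 1.04 for Scd2.

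The ratio of Scd1 to Scd2 counts was 0.173, 0.171 and 0.170 in WT, 0.280, 0.268 and 0.274 in Tnfaip2-/- and 0.208, 0.207 and 0.199 in PA/PC-treated libraries. The ratio was thus highest in untreated Tnfaip2-/- EBs and lowest in WT, with treated EBs between them and no overlap (exact permutation test, p = 0.1 for each comparison, adjusted p = 0.138). Scd1, Scd2, Scd3 and Scd4 lie side by side on chromosome 19 and share sequence, and 4.48% of the 51-base words of Scd1 and 3.89% of those of Scd2 occur in other genes. Scd3 held 17 to 26 counts in WT, 51 to 72 in Tnfaip2-/- and 22 to 30 in treated libraries, and Scd4 0 to 9 counts in any library, both far below the counts of 1804 or more for Scd1.

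**Figure D4:**
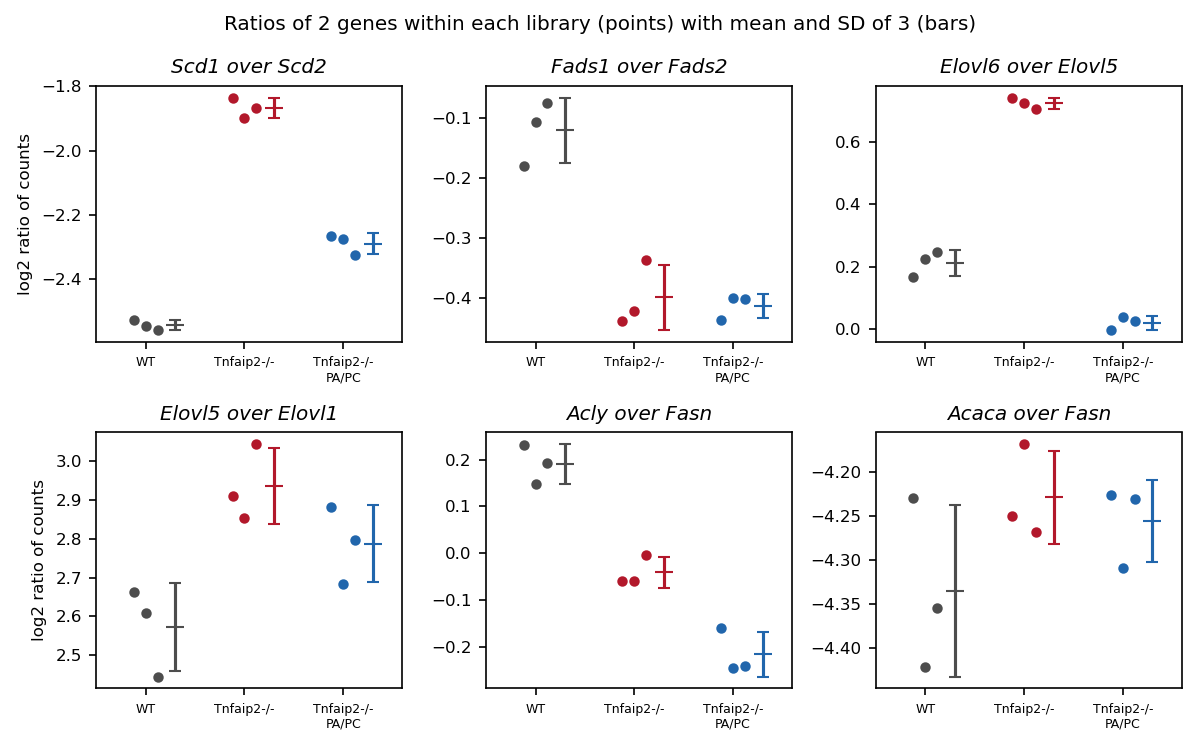
Log2 ratio of the counts of 2 members within each library, for 6 pairs, with the mean and SD of 3 libraries beside the points, in WT (grey), Tnfaip2-/- (red) and PA/PC-treated EBs (blue). The axes do not start at 0 because the ratios are logarithms. The Scd1 over Scd2, Elovl6 over Elovl5 and Acly over Fasn ratios separate all 3 groups.

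Fads1 and Fads2, the front-end desaturases, lie near each other on chromosome 19, and both rose with PA/PC. Fads2 (chr19:10062765-10101746, minus strand) encodes delta-6 desaturase, which opens the route from linoleic and alpha-linolenic acid to longer polyunsaturated fatty acids. Its level was 161, 160 and 157 CPM in WT, 158, 154 and 152 CPM in Tnfaip2-/- and 255, 258 and 257 CPM in PA/PC-treated libraries. WT and untreated Tnfaip2-/- libraries overlapped, and the treated libraries were well above both. Between genotypes the log2 difference was -0.04, with an interval of -0.10 to 0.01 (edgeR, adjusted p = 0.124). It was 0.73 ± 0.0275 with PA/PC (edgeR, adjusted p = 1.10e-23) and 0.68 ± 0.0288 between treated and WT EBs (edgeR, adjusted p = 1.71e-16).

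Fads1 (chr19:10182888-10196877, plus strand) encodes delta-5 desaturase, which acts later on the same route and yields arachidonic and eicosapentaenoic acid. It measured 142, 149 and 149 CPM in WT, 117, 115 and 120 CPM in Tnfaip2-/- and 188, 195 and 194 CPM in PA/PC-treated libraries. The 3 groups did not overlap, with untreated Tnfaip2-/- lowest and treated EBs highest. Its log2 fold change was -0.32 ± 0.0285 between genotypes (edgeR, adjusted p = 3.55e-12), 0.71 ± 0.0294 with PA/PC (edgeR, adjusted p = 1.72e-22) and 0.39 ± 0.0306 between treated and WT EBs (edgeR, adjusted p = 3.60e-11). Under library totals these rises were smaller, at 0.55 with PA/PC and 0.22 against WT for Fads1 and 0.56 and 0.51 for Fads2, and all were called.

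The ratio of Fads1 to Fads2 counts was 0.883, 0.929 and 0.950 in WT, 0.738, 0.746 and 0.792 in Tnfaip2-/- and 0.739, 0.758 and 0.757 in PA/PC-treated libraries. It was lower in both Tnfaip2-/- groups than in WT without overlap (exact permutation test, p = 0.1, adjusted p = 0.138). Treated and untreated libraries overlapped, with a log2 difference in the ratio of -0.01 (exact permutation test, p = 0.9, adjusted p = 0.9). The Fads2 window in RefSeq, chr19:10101454-10101753 along the minus strand, is shown because Fads2 was the front-end desaturase with an entry. It lies almost wholly inside the annotated gene, and it held 1 GC box, in capitals, starting at -186.

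Fads2 promoter: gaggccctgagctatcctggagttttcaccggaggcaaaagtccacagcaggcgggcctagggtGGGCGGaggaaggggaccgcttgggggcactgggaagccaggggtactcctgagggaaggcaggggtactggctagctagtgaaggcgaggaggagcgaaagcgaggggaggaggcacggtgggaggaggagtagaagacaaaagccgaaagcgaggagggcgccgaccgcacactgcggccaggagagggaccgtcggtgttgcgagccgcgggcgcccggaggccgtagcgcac

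For each member the gene outside the list with the most similar course over the 9 libraries was found by the Euclidean distance between centred log2(CPM + 0.5) values, over 11111 genes that averaged 5 CPM or more. The nearest to Scd2 was Prps2, at 111 ± 1.01 CPM in WT, 93.5 ± 1.10 in Tnfaip2-/- and 209 ± 2.09 in PA/PC-treated EBs (SD, n = 3), with a distance of 0.118. For Scd1 it was Slc38a3, at 5.47, 8.27 and 15.0 CPM in the same order and a distance of 0.219. For Elovl6 it was Ddx42, at 209, 280 and 209 CPM and a distance of 0.088. The nearest to Fads1 was Thoc3 and to Fads2 Naca, with distances of 0.077 and 0.078. Those of the synthesis genes and of Elovl1 were Kcmf1 for Acly, Nr6a1 for Acaca, Pip4p1 for Fasn and Rbck1 for Elovl1, at 0.042 to 0.142. A flat gene would lie 0.313 from Elovl5 and 1.58 from Scd2, so a small distance says less for a member that varied little.

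The wider pathway was read from 52 further genes in 6 lists, of which 50 were tested. In Tnfaip2-/- against WT EBs 17 were higher and 20 lower, beside 36.8% and 37.1% of all genes, with a median log2 fold change of -0.04. With PA/PC 23 were higher and 17 lower, beside 39.6% and 42.2% of all genes, with a median of 0.05. Under library totals this balance turned to 18 higher and 25 lower. In treated against WT EBs 19 were higher and 16 lower, beside 34.2% and 36.4% of all genes, with a median of 0.03, which turned to 13 higher and 26 lower under library totals. Genes of each list moved in both directions with PA/PC.

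Among the 10 other elongases and elongation cycle genes, 9 were tested, of which 1 was higher and 5 lower between genotypes. With PA/PC 5 were higher and 3 lower, or 4 and 4 under library totals. Tecr, the reductase of the last step of each elongation round, was at 263 ± 9.97 CPM in WT, 147 ± 4.50 in Tnfaip2-/- and 354 ± 21.1 in PA/PC-treated EBs (SD, n = 3). Its log2 fold change was -0.84 between genotypes and 1.26 with PA/PC (edgeR, adjusted p = 1.41e-23 and 7.34e-29). Hacd4, a dehydratase of the same cycle, changed by -1.35 with PA/PC, from 3.22 to 1.27 CPM.

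Of the 7 genes that supply precursors and NADPH, 4 were higher and 3 lower between genotypes. With PA/PC 3 were higher and 4 lower, or 2 and 4 under library totals. Pgd, an NADPH-producing enzyme of the pentose phosphate pathway, was at 223, 142 and 264 CPM in WT, Tnfaip2-/- and PA/PC-treated EBs, changes of -0.65 between genotypes and 0.89 with PA/PC. Mlycd, which breaks malonyl-CoA down, changed by -0.77 and 0.41 in the same comparisons. Among the 4 carboxylases and helpers, 1 was higher and 2 lower in each of these comparisons. Mid1ip1, which helps acetyl-CoA carboxylase polymerise, was lower by -0.86 on the log2 scale in Tnfaip2-/- than in WT EBs and differed by 0.08 with PA/PC, or -0.09 under library totals, neither of which was called. Thrsp, its paralogue, fell by 1.35 with PA/PC from 1.24 to 0.483 CPM. Of the Mid1ip1 exon bases, 25.5% overlap those of Gm14493.

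Of the 7 genes of mitochondrial fatty acid synthesis, 1 was higher and 3 lower between genotypes, and 4 were higher and 1 lower with PA/PC, or 3 and 3 under library totals. Acsf3, which makes mitochondrial malonyl-CoA, changed by -0.39 and 0.59 in those comparisons. Hsd17b8 was near 1 CPM in every group and was called only with PA/PC, at 0.61. That call was lost under library totals (edgeR, adjusted p = 0.093). Of the Hsd17b8 exon bases, 86.4% overlap those of Gm20427, so its level is uncertain. Of the 7 other desaturases and electron donors 6 were tested, with 4 higher and none lower between genotypes. With PA/PC 1 was higher and 3 lower, or 1 and 4 under library totals. Scd3 rose by 1.41 between genotypes and changed by -1.01 with PA/PC, at no more than 1.99 CPM. Fads6 changed by -0.90 with PA/PC and was not called between genotypes.

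Of the 17 regulators, 6 were higher and 7 lower between genotypes, and 9 were higher and 4 lower with PA/PC, or 7 and 8 under library totals. Mlx, the partner of the carbohydrate response element binding protein, was at 45.4, 81.3 and 39.7 CPM in WT, Tnfaip2-/- and PA/PC-treated EBs, changes of 0.84 between genotypes and -1.04 with PA/PC. Usf2, an E-box binding factor of lipogenic promoters, was at 45.6, 32.5 and 67.2 CPM, changes of -0.49 and 1.05. Of the Mlx exon bases, 19.3% overlap those of Psmc3ip, and of the Usf2 exon bases, 9.09% overlap those of Gm17077 and Gm44662. In treated against WT EBs, the 6 lists had 0 to 6 genes called higher and 2 to 5 called lower each, or 0 to 4 and 3 to 9 under library totals, where the regulators went from 6 higher and 5 lower to 4 and 9.

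**Figure D5:**
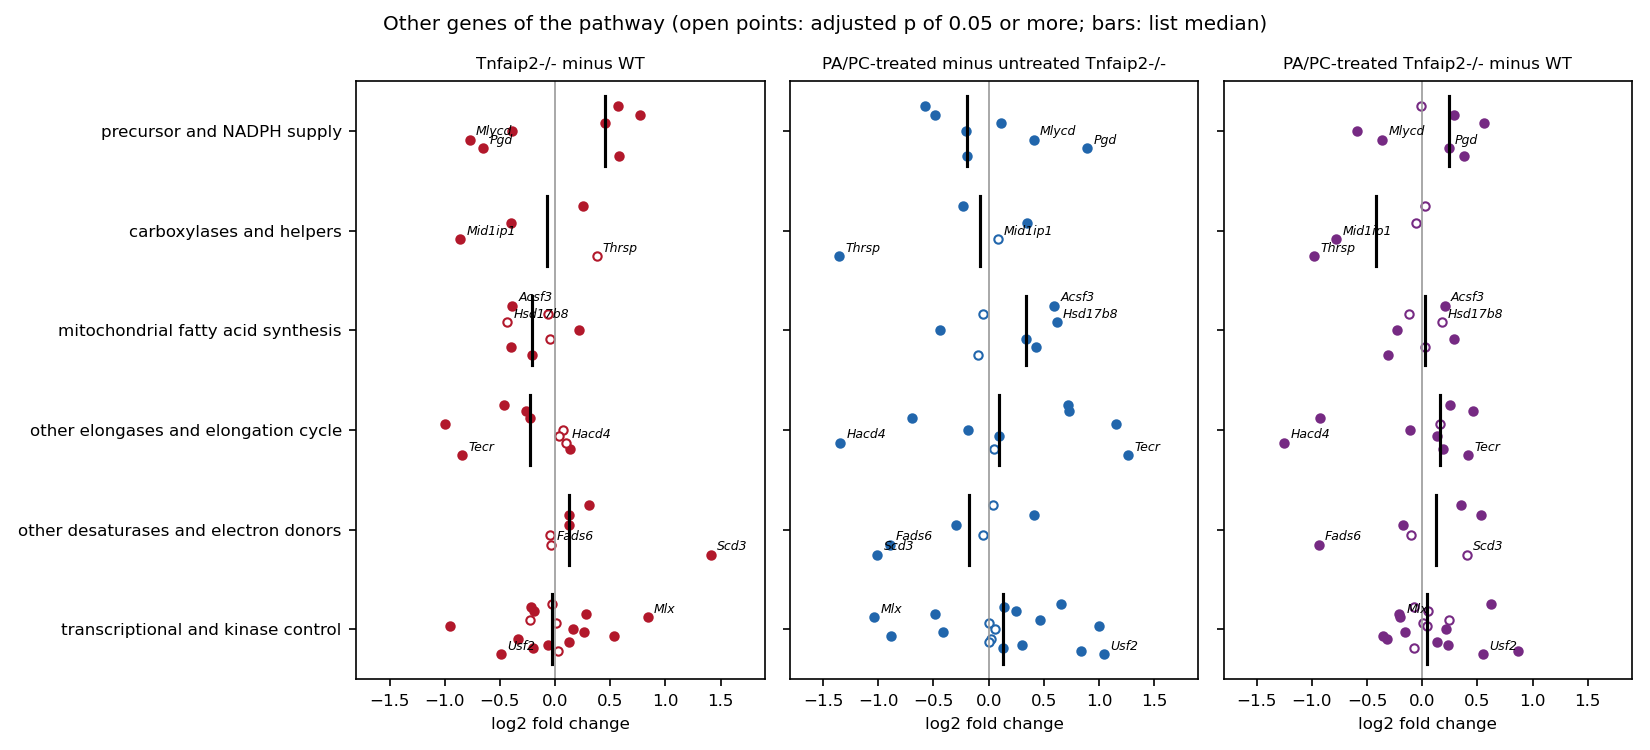
Log2 fold change of each tested gene of the 6 wider pathway lists, in 3 panels for Tnfaip2-/- against WT, PA/PC-treated against untreated Tnfaip2-/-, and PA/PC-treated Tnfaip2-/- against WT EBs, with list medians as vertical bars. Open points had an adjusted p of 0.05 or more, and genes of 1 list lie on both sides of 0, with Tecr low in the first panel and high in the second.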

How the data were processed

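Poly(A) RNA of pooled EBs was sequenced with an unstranded TruSeq RNA v2 kit. The authors deposited 1 table of raw counts per Ensembl gene for 9 libraries. The submitters' processing notes name bcl2fastq 2.20.0.422, STAR 2.7.2b, featureCounts 1.6.5 and GRCm38 for all of them. The study's methods give an earlier aligner for Tnfaip2-/- against WT, and which pipeline made the WT columns was not settled here. Reads that map to several positions are not in such counts. No per-sample column was left unused (0).

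Symbols and gene lengths came from GENCODE M21. Each comparison of 3 against 3 libraries was fitted whole with edgeR 4.0.16 (R 4.3.3; filterByExpr, TMM, quasi-likelihood F-test) and called at a Benjamini-Hochberg adjusted p under 0.05. A minimum fold of 1.5 was tested with glmTreat. DESeq2 1.42.0, other scalings and filters, a joint fit, a replicate block and leaving out each library were alternatives. The fit was tested on simulated data. Printed CPM use TMM factors over all 9 libraries. Replicates differed by more than counting noise, with a biological coefficient of variation of 2.09% to 2.65%. The study describes the treated and untreated Tnfaip2-/- replicates as separate pools of EBs, all of 1 clone. For the comparison with WT it names them biological replicates. The p-values therefore measure the spread between such replicates, not between clones. Replicate numbers did not pair libraries across groups, with correlations of deviations of -0.0415 to 0.0621. All 10 members were named, with 2 genes of each wider list having the largest called change in any comparison at 1 CPM or more, and the nearest gene to each member, except that of Elovl5, which is not reported here. The members and lists were chosen with earlier results of these data known.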

Additional observations from a re-analysis of the deposited data

How the results depend on the processing

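Every member that was past 1.5-fold, and all 8 calls between genotypes, were called in the same direction under DESeq2, size factors of the DESeq2 type, library totals, both other filters, the joint fit and the replicate block, and with any 1 library left out. Requiring a change of more than 1.5-fold left 3637, 6491 and 2953 genes called in Tnfaip2-/- against WT, PA/PC-treated against untreated and treated against WT EBs in place of 12813, 14047 and 11760. It left 0 members higher and 0 lower in the first, 4 higher and 0 lower in the second and 4 higher in the third. The minimum fold was tested with TMM scaling alone. Under library totals the log2 fold changes of Fads1 and Fads2 with PA/PC were 0.55 and 0.56. Those of Acaca and Fads2 in treated against WT EBs were 0.54 and 0.51, and all of these are below 1.5-fold. Scd1 and Scd2 stayed above it, at 0.61 and 1.04 with PA/PC and 1.08 and 0.82 against WT. Library totals gave 2 members lower in each comparison with treated EBs, in place of 1 and 0.

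Signs turned as follows, and the cause was not tested. With PA/PC, Acly became 0.007 without a filter beyond 1 count, and Acaca -0.035 and Fasn -0.008 under library totals. In treated against WT EBs, Elovl1 ran from -0.064 to 0.019 when 1 library was left out, being above 0 without WT replicate 3 or treated replicate 1. Elovl6 became 0.012 in DESeq2, 0.004 with DESeq2 size factors, 0.008 without a filter beyond 1 count and 0.001 in the joint fit, and ran from -0.022 to 0.008 when 1 library was left out, being above 0 without WT replicate 2 or treated replicate 2. Only the Acaca and Fasn values had been called.

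The replicate block gave 12587, 13822 and 12223 genes called in the 3 comparisons and changed no call of a member. Levels per length moved in 54 of 60 values when the longest transcript or the coding length replaced merged exons.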
